A study of Mus musculus with 6 samples.

Results

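The 10 genes described here encode receptors and ligands of activin, GDF and bone morphogenetic protein (BMP) signalling. All were chosen by name around Acvr1c, with earlier results of these data known. They are the type I receptors Acvr1, Acvr1b, Acvr1c and Bmpr1a, the type II receptors Acvr2a, Acvr2b and Bmpr2, and the ligand genes Inhbb, Gdf3 and Bmp4. All 10 were found among the 54385 rows of the deposited table, and 9 were among the 18114 genes tested. Gdf3 was too low to pass the count filter of that test, which was run in edgeR.

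The RNA came from interscapular brown adipose tissue. The C57BL/6N mice were aged 20 weeks and gave 3 wild-type (wt/wt) libraries and 3 ADCY3∆AT libraries. Both genotypes ate chow until the age of 8 weeks, then a high-fat diet over 12 weeks, and all were held at 4 °C for 24 h. ADCY3∆AT mice lack Adcy3-AT, a truncated product of the gene for adenylyl cyclase 3, which synthesises cyclic AMP. The sources used here do not give how the allele was made. The series text calls the depot inguinal and the sample labels interscapular, and the labels do not say that each replicate is a separate animal, so p-values measure only the spread between these libraries, which may be technical.

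Ligands of this family bind a complex of type II and type I receptor kinases on the cell surface. The type II kinase activates the type I kinase, which phosphorylates SMAD2 and SMAD3 for activins, GDF3 and TGF-beta, or SMAD1, SMAD5 and SMAD9 for BMPs. ALK7, the product of Acvr1c, is a type I receptor abundant in adipocytes, where it is known in mice to restrain lipolysis and adrenergic responsiveness, and BMPR1A signalling is known in mice to promote brown adipocyte formation.

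Library totals ranged from 44826777 to 54933588 estimated counts. Adcy3, the targeted gene, had 651.9 to 727.8 counts per 1000000 (CPM, with TMM normalisation) in wild type and 341.9 to 505.6 CPM in ADCY3∆AT, with adjusted p = 0.158 in edgeR and 4.26e-07 in DESeq2. A row that is not in the annotation, whose identifier ends in the same digits as that of Adcy3, had 477.4 to 628.6 CPM in wild type, and no ADCY3∆AT library had a count there. Whether both genotypes were counted against 1 reference is likewise not stated. The 10 brown adipocyte markers, Ucp1 among them, summed to 18747 to 18864 CPM in wild type against 17885 to 18227 CPM in ADCY3∆AT, and none was at 0 in any library.

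No member lies on chromosome 12, which carries Adcy3. Acvr1c (ENSMUSG00000026834, a protein-coding gene on the minus strand of chromosome 2, 58267453 to 58357895, GRCm38) lies 30.7 kb from Acvr1 (ENSMUSG00000026836, minus strand of chromosome 2, 58388644 to 58567157). Bmpr1a (ENSMUSG00000021796) is on the minus strand of chromosome 14, 34410734 to 34503341. Acvr2a (ENSMUSG00000052155) is on the plus strand of chromosome 2, 48814109 to 48903269, and shares 446 exonic bases with Orc4 on the opposite strand. No source used here states the strand setting of the counting, so reads over those bases cannot be assigned to Acvr2a or Orc4. The other members are protein-coding too, with Bmpr2 on chromosome 1 (59763400 to 59879014, plus strand), Inhbb on chromosome 1 (119415465 to 119422248, minus) and Acvr1b on chromosome 15 (101174067 to 101213684, plus). Acvr2b is on chromosome 9 (119402118 to 119434995, plus), Gdf3 on chromosome 6 (122605403 to 122610087, minus) and Bmp4 on chromosome 14 (46383520 to 46390669, minus).

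The sequence upstream of the starts of Acvr1c and Bmpr1a is shown because these receptors had the lowest p-values of the members. RefSeq (GRCm38.p6) lists a pair of starts for Acvr1c, an outer one near the annotated 5′ end of the gene and another inside it. The listed start of Bmpr1a also lies inside its annotated gene, as does the stretch shown for it. Sequences run 5′ to 3′ on the minus strand, annotated exons are left out, and capitals mark a match to the motif GGCGCC described after them. They are chr2:58357896-58358008 for the outer start of Acvr1c (bases 250 to 138 before it), chr2:58324808-58325057 for its inner start (bases 250 to 1) and chr14:34502688-34502796 for Bmpr1a (bases 250 to 142).
Acvr1c, outer start: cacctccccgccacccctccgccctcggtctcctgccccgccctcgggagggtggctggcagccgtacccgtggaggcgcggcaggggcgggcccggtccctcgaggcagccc
Acvr1c, inner start: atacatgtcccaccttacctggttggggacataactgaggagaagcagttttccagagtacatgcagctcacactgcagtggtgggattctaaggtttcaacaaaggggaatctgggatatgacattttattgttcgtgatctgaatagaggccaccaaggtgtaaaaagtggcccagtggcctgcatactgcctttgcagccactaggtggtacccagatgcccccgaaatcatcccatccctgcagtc
Bmpr1a: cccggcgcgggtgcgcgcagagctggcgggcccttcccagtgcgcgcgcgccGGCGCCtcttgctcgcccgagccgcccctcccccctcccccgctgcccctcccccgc

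The 250 bases before the outer Acvr1c start held 79.6% G and C and 32 CG pairs, and those before the Bmpr1a start held 78.8% and 36. The 250 bases before the inner Acvr1c start held 49.6% and 2 CG pairs, against medians of 52.4% and 6 over 32619 RefSeq promoter windows. The deposited counts are per gene, so they do not tell which start was in use. Each window was searched on both strands for the cyclic AMP response element TGACGTCA and its half-site TGACG, which the full element contains, for the SMAD3 box core CAGAC and for the SMAD1 and SMAD5 site GGCGCC. Neither Acvr1c window held any of them, which says only that these letters are not there. The Bmpr1a window held 1 GGCGCC, in capitals above, a motif found in 9.7% of all windows, and the Bmpr2 window also held 1. CAGAC occurred once each in the Acvr2a and Acvr2b windows, and 42.1% of all windows held it. The shares for TGACGTCA and TGACG were 1.6% and 17.9%, and neither occurred in a window of the 9 members that the table covers. A match is a string of letters and was not tested as a binding site.

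Levels were set beside each other per kilobase of merged exons, in wild type. Acvr1c stood highest with 35.0 ± 2.16 CPM per kb (SD, n = 3), followed by Bmpr2 with 9.79 ± 0.390 and Bmpr1a with 9.36 ± 0.270. Bmpr2 and Bmpr1a overlapped between libraries, while the gap between either of them and Acvr1c did not close in any library. Acvr2a had 4.61 ± 0.154 CPM per kb, Acvr1b 2.01 ± 0.258, Acvr1 1.07 ± 0.278 and Acvr2b 0.557 ± 0.0742, and none of these neighbours in the order overlapped. The ligand genes lay below every receptor. Bmp4 had 0.355 ± 0.0997 CPM per kb and Inhbb 0.313 ± 0.0983, which overlapped, and Gdf3 had 0.0417 ± 0.0245. With the length of the longest transcript in place of merged exons, the order of the 10 genes was the same.

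**Figure D1:**
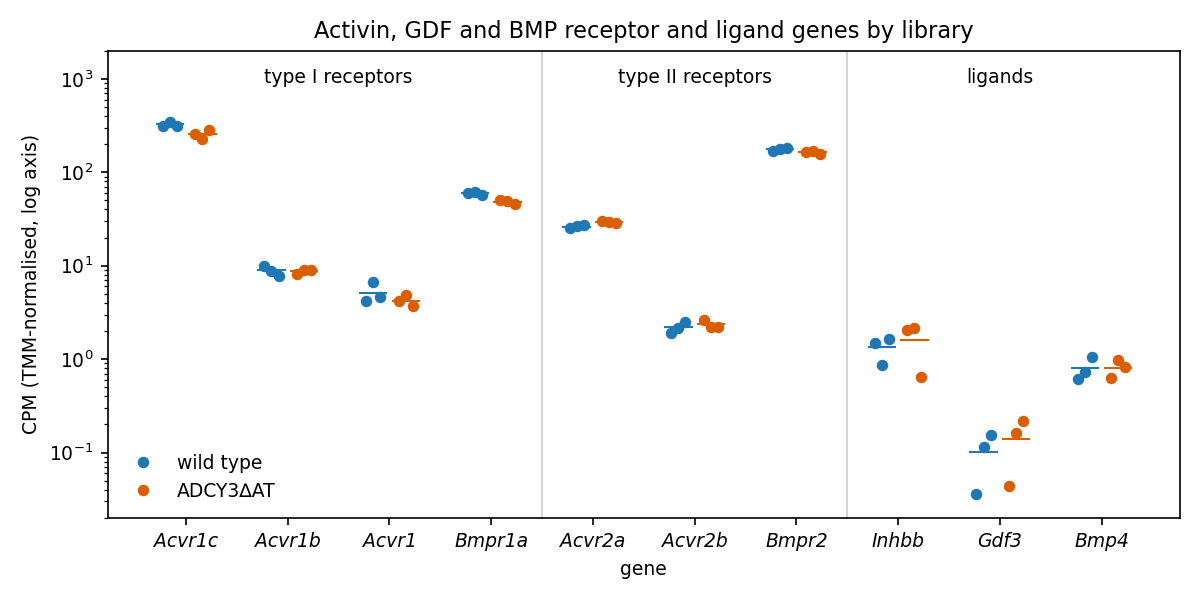
Normalised CPM (log axis) of the 10 genes in each library, 3 wild type in blue and 3 ADCY3∆AT in orange, with lines at the group means. Acvr1c is highest of the type I receptors at 228 to 349 CPM, and the ligand genes lie at the bottom of the range. CPM is not divided by gene length here.

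Acvr1c, which encodes a receptor for activin B and GDF3, lay lower in ADCY3∆AT. It had 316, 349 and 313 CPM in wild type against 254, 228 and 282 CPM in ADCY3∆AT. The groups did not overlap, with 30.7 CPM between the nearest pair of libraries, and ADCY3∆AT replicate 3 was the closest to wild type. The means were 326 ± 20.0 and 255 ± 26.9 CPM (SD, n = 3 each), which is -0.36 ± 0.08 (SE) as a log2 fold change. In edgeR's quasi-likelihood test over all genes the Benjamini-Hochberg adjusted p was 0.214, above the threshold of 0.05, while DESeq2 called the gene lower with adjusted p = 0.00747. Permuting the libraries exactly, on log2 CPM and counting both sides, gave p = 0.1, the smallest value that 20 assignments of 3 against 3 libraries allow. The DESeq2 call was lost when wild-type replicate 2 (adjusted p = 0.204), ADCY3∆AT replicate 1 (0.0626) or ADCY3∆AT replicate 2 (0.190) was left out.

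In bulk tissue, fewer cells of a type and less RNA per cell cannot be told apart. Markers of other cell types differed in level between the same libraries. As background for their counts, 5.78% of all genes tested were lower and 5.23% higher at an unadjusted p under 0.05. DESeq2 called 0.706% lower and 0.441% higher, and 9224 of 18114 fold changes in edgeR were positive. The 14 skeletal muscle markers all had negative fold changes, with a median log2 fold change of -3.11. Of them, 13 had an unadjusted p under 0.05 and 2 were called by DESeq2. They summed to 1073, 825 and 1720 CPM in wild type against 251, 466 and 578 CPM in ADCY3∆AT. Most of each ADCY3∆AT sum was Mb, with 404, 354 and 423 CPM in wild type against 223, 363 and 359 CPM in ADCY3∆AT. The groups of Mb overlapped, so the sums differ by a smaller factor than the median marker. Ckm, Myh7 and Ryr1 were at 0 in ADCY3∆AT replicate 1, where Mb still had 223 CPM. The sums are therefore no measure of the amount of muscle RNA in a library. The 9 endothelial markers summed to 1122 to 1194 CPM in wild type against 1204 to 1288 CPM in ADCY3∆AT, with 7 positive fold changes, 4 of them higher at an unadjusted p under 0.05 and 1, Cdh5, called by DESeq2 (0.28, adjusted p = 0.0202). Of the brown adipocyte markers, 7 of 10 had negative fold changes, with a median log2 fold change of -0.04. At an unadjusted p under 0.05, 2 were lower and 1 higher. Their summed levels, given above, did not overlap either. Ucp1, the largest part of each sum, had -0.06 ± 0.04 (SE, edgeR adjusted p = 0.674). The largest change was in Dio2, with 670, 816 and 623 CPM in wild type against 310, 328 and 616 CPM in ADCY3∆AT. Its log2 fold change was -0.75 ± 0.25 (edgeR adjusted p = 0.334, DESeq2 adjusted p = 0.543). The markers did not all go one way, since DESeq2 called Elovl3 lower (-0.38, adjusted p = 0.0332) and Ppara higher (0.32, adjusted p = 0.00227). The sums of fibroblast, mural, macrophage, B cell, erythroid and Schwann cell markers overlapped between genotypes. The part of any of these in the Acvr1c result or in the results that follow was not tested.

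Bmpr1a encodes ALK3, the main type I receptor for BMP2 and BMP4. It had 59.9, 61.0 and 57.6 CPM in wild type against 50.7, 49.3 and 46.0 CPM in ADCY3∆AT. The groups did not overlap, and ADCY3∆AT replicate 3, the library nearest to wild type for Acvr1c, was here the farthest from it. The log2 fold change was -0.29 ± 0.05 (SE), with adjusted p = 0.158 in edgeR, the lowest of the members, and adjusted p = 0.0147 in DESeq2. That DESeq2 call was lost without wild-type replicate 1 (adjusted p = 0.0796), wild-type replicate 2 (0.168) or ADCY3∆AT replicate 2 (0.122).

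The other type I receptors differed by less than their spread. Acvr1b, which encodes the activin receptor ALK4, had 10.04, 8.86 and 7.77 CPM in wild type against 8.16, 9.04 and 8.95 CPM in ADCY3∆AT. Its libraries were interleaved and the log2 fold change was -0.03 ± 0.11 (SE), with a sign that turned without wild-type or ADCY3∆AT replicate 1. Acvr1, which encodes the BMP receptor ALK2 and is the neighbour of Acvr1c, had 4.14, 6.68 and 4.66 CPM in wild type against 4.15, 4.90 and 3.66 CPM in ADCY3∆AT. Its groups overlapped, with wild-type replicate 2 well above the rest, and the log2 fold change was -0.28 ± 0.20 (edgeR adjusted p = 0.648). Its estimate rested largely on that library, and was -0.05 without it.

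Among the type II receptors, Acvr2a, which binds activins and some BMPs, was the only member whose ADCY3∆AT libraries all lay higher. It had 25.3, 26.3 and 27.1 CPM in wild type against 30.003, 29.2 and 28.8 CPM in ADCY3∆AT, and its log2 fold change was 0.16 ± 0.05 (SE). It passed neither in edgeR (adjusted p = 0.331) nor in DESeq2 (0.588). Orc4, which overlaps it on the other strand, held 1581.8, 1304.9 and 1292.6 estimated counts in wild type against 1361.3, 1471.7 and 1294.0 in ADCY3∆AT. These counts are not corrected for library size, unlike the CPM of Acvr2a, and on them the libraries were interleaved. Bmpr2, the BMP type II receptor, had 168, 178 and 182 CPM in wild type against 165, 167 and 157 CPM in ADCY3∆AT. These groups were apart by 1.11 CPM, and the log2 fold change was -0.11 ± 0.05 (edgeR adjusted p = 0.514). Acvr2b, the second activin type II receptor, had 1.91 to 2.49 CPM in wild type against 2.21 to 2.65 CPM in ADCY3∆AT, with overlapping groups and a log2 fold change of 0.11 ± 0.17, which was 0.02 without replicate 1 of either genotype.

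**Figure D2:**
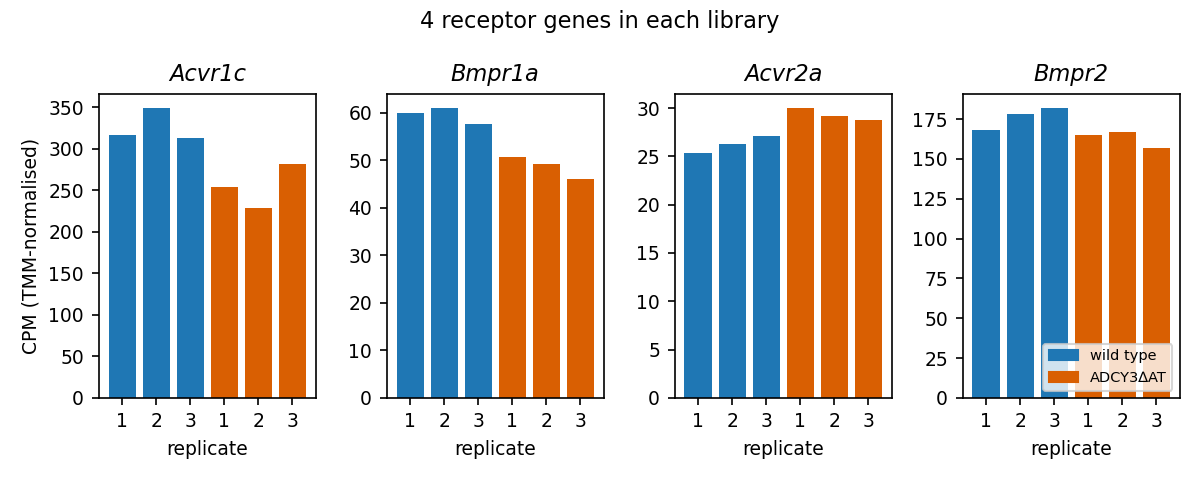
Normalised CPM (linear axes from 0) of Acvr1c, Bmpr1a, Acvr2a and Bmpr2 in each of the 3 wild-type (blue) and 3 ADCY3∆AT (orange) libraries, each bar being 1 library. Acvr1c and Bmpr1a are lower in every ADCY3∆AT library, Acvr2a is higher in each, and the Bmpr2 groups are apart by only 1.11 CPM.

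The ligand genes had the lowest counts of the members. Inhbb encodes the subunit of activin B. It had 1.48, 0.863 and 1.66 CPM in wild type against 2.06, 2.13 and 0.646 CPM in ADCY3∆AT. Its groups overlapped, since ADCY3∆AT replicate 3 held the lowest value and the other ADCY3∆AT libraries the highest ones, and the log2 fold change was 0.27 ± 0.44 (SE), or 0.65 ± 0.29 without that library (edgeR adjusted p = 0.378) and 0.01 without ADCY3∆AT replicate 2. Bmp4 encodes a BMP made in adipose tissue, and it had 0.620, 0.727 and 1.05 CPM in wild type against 0.634, 0.975 and 0.818 CPM in ADCY3∆AT. The libraries of both genotypes were interleaved, and its log2 fold change of 0.03 ± 0.29 changed sign when single libraries were left out. Gdf3 encodes GDF3, which signals through ALK7, and it held 2, 5 and 7 estimated counts in wild type against 2, 8 and 10 in ADCY3∆AT. DESeq2, run without edgeR's count filter, gave Gdf3 a log2 fold change of 0.49 (adjusted p = 0.998). At counts this low a difference in Gdf3 was not detectable.

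Of the 9 members tested, none passed in edgeR, where 0.00552% of all genes did, which was only the row outside the annotation given above. At an unadjusted p under 0.05, Acvr1c and Bmpr1a were lower, as were 5.78% of all genes, and Acvr2a was higher, as were 5.23%. DESeq2 called Acvr1c and Bmpr1a, both lower. It called 1.15% of the 19977 genes it tested, 0.706% lower and 0.441% higher. With no low-count filter edgeR called Acvr1c alone of the members, where it called 0.697% of 30714 genes, 0.505% lower and 0.192% higher. Groups did not overlap for 3 members that were lower (8.83% of all genes) and 1 that was higher (7.68%). The median log2 fold change was -0.03 over the 9 members and 0.00 over all genes tested. Without ADCY3∆AT replicate 3, edgeR called 66 genes (0.355%), no member among them, and Acvr1c had adjusted p = 0.0654.

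Acvr1c made up more than any other gene of the summed per-length level of the type I receptors. Over the 7 type I receptor genes, which add Acvrl1, Bmpr1b and Tgfbr1 to the members, the sum was 59.4, 63.1 and 57.7 CPM per kb in wild type against 50.1, 47.9 and 53.6 CPM per kb in ADCY3∆AT. The groups did not overlap. Acvr1c made up 57.2%, 59.5% and 58.3% of that sum in wild type against 54.5%, 51.3% and 56.6% in ADCY3∆AT. The sum without Acvr1c was 22.8 to 23.3 CPM per kb in ADCY3∆AT against 24.1 to 25.6 CPM per kb in wild type. It still holds Bmpr1a (mean 9.36 in wild type against 7.67 in ADCY3∆AT) and Tgfbr1 (5.37 against 4.78). It is therefore not separate from the Bmpr1a result. Of the genes in it, only Acvrl1 had a higher mean in ADCY3∆AT (7.18 against 7.81). The 5 type II receptor genes, with Tgfbr2 and Amhr2 added, summed to 21.2 to 22.4 CPM per kb in wild type against 21.2 to 22.7 CPM per kb in ADCY3∆AT, with overlapping groups. The per-length ratio of Acvr1c to Acvr2a plus Acvr2b, its activin type II partners, was 6.79 ± 0.520 in wild type against 4.76 ± 0.562 in ADCY3∆AT (SD, n = 3 each). These sums, shares and ratios were not tested.

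**Figure D3:**
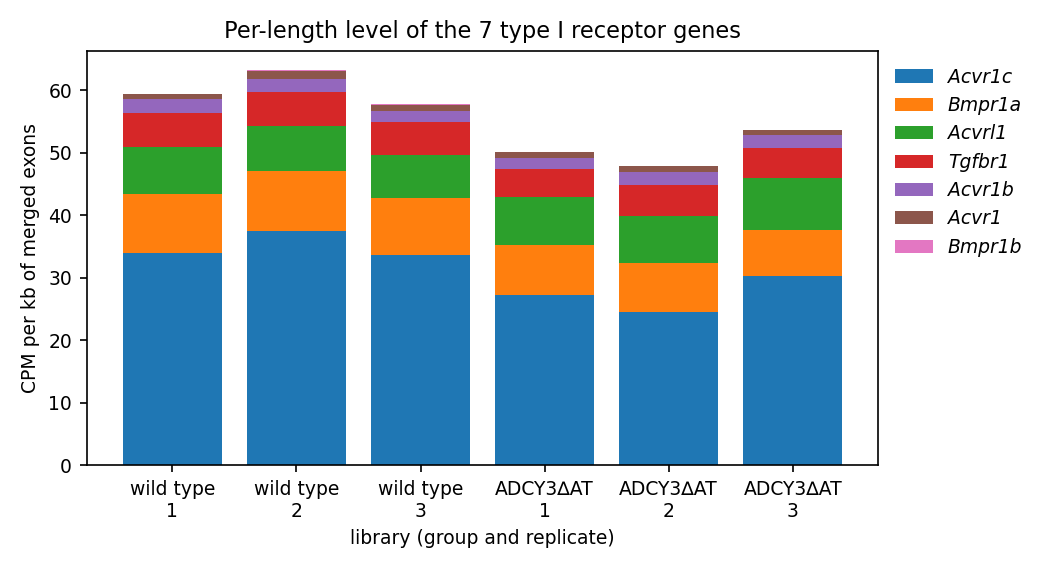
Stacked bars of the per-length level (CPM per kb of merged exons) of the 7 type I receptor genes in each library, with group and replicate on the horizontal axis. Acvr1c is the largest block in all 6 libraries, at 51.3% to 59.5% of the sum, and the ADCY3∆AT bars are the shorter ones.

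The rest of the pathway was described from lists of its roles. Of 64 tested pathway genes that are no member, counting once a gene in several lists, none passed in edgeR or DESeq2, and 7 were higher and 4 lower at an unadjusted p under 0.05, with a median log2 fold change of 0.06. Over all genes tested, 5.23% were higher and 5.78% lower at that p, and these shares are the background for each list that follows. Of the other receptors, Tgfbr1, which encodes the TGF-beta type I receptor ALK5, had -0.17 ± 0.05 (log2 fold change ± SE) and non-overlapping groups. Acvrl1, which encodes the endothelial receptor ALK1, had 0.12 ± 0.06, in libraries where the endothelial marker sum was higher as given above. Tgfbr2, which encodes the TGF-beta type II receptor, had 0.09 ± 0.06. With 1 lower and 0 higher at an unadjusted p under 0.05, the 4 receptors tested of 5 had a median of -0.04.

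Ligand genes outside the members came next. Of the activin, GDF and TGF-beta ligands, 8 of 16 were tested, and 3 were higher and 0 lower at an unadjusted p under 0.05, with a median log2 fold change of 0.27, beside the 5.23% and 5.78% of all genes. They were Tgfb1 (0.45 ± 0.13, SE), which encodes the most widely made TGF-beta, Gdf11 (0.65 ± 0.21) and the stress-induced Gdf15 (0.78 ± 0.26, and 0.52 without wild-type replicate 2). Tgfb1 had 5.59, 4.54 and 4.35 CPM in wild type against 6.54, 6.16 and 7.08 CPM in ADCY3∆AT, which did not overlap, and its adjusted p was 0.287 in edgeR. Inhbc, which encodes the subunit of activin C, another ALK7 ligand, was at 0 in every library. Of the BMP ligands, 6 of 14 were tested, with 1 higher and 0 lower at an unadjusted p under 0.05. That gene, Bmp6, had 24.3, 29.7 and 28.8 CPM in wild type against 33.4, 34.0 and 31.4 CPM in ADCY3∆AT, which did not overlap (0.26 ± 0.08). Gdf5 had -0.48 ± 0.40, from -0.95 without ADCY3∆AT replicate 1 to -0.23 without ADCY3∆AT replicate 3, and Bmp8b, made by brown adipocytes, had -0.14 ± 0.23 with a sign that turned without wild-type or ADCY3∆AT replicate 1. Per length, Bmp6 stood at 20.7 ± 4.24 times the level of Bmp4 in wild type against 24.2 ± 5.42 times in ADCY3∆AT (SD, n = 3 each).

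Co-receptors and secreted inhibitors held 1 gene at an unadjusted p under 0.05. Hfe2, which encodes the BMP co-receptor hemojuvelin and is made in skeletal muscle, had 1.97, 1.59 and 3.92 CPM in wild type against 0.0219, 0.305 and 0.430 CPM in ADCY3∆AT. Its log2 fold change was -3.28 ± 0.63 (edgeR adjusted p = 0.158, DESeq2 adjusted p = 0.0503), in the libraries whose muscle marker sums are given above, and it passed in edgeR with no low-count filter (adjusted p = 0.00458). Tgfbr3, the TGF-beta and BMP co-receptor betaglycan, had -0.19 ± 0.09 and Rgmb 0.11 ± 0.08. The 10 inhibitors tested of 15 had a median of 0.02, with 0 lower and 0 higher at an unadjusted p under 0.05. Those with the lowest p-values were Crim1 (0.11 ± 0.07), Fst, which encodes the activin trap follistatin (0.30 ± 0.26), and Twsg1 (0.10 ± 0.10). Fst had 0.03 without ADCY3∆AT replicate 1, as had Twsg1 without ADCY3∆AT replicate 2, and Rgmb without wild-type replicate 1.

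Of the 14 SMADs and their regulators, 1 was lower and 1 higher at an unadjusted p under 0.05. Smad3, a transducer of ALK7, ALK4 and ALK5, had 31.6, 29.8 and 34.4 CPM in wild type against 27.8, 25.0 and 25.5 CPM in ADCY3∆AT. These groups did not overlap (log2 fold change -0.29 ± 0.07, edgeR adjusted p = 0.226, DESeq2 adjusted p = 0.103). Its partner Smad2 had overlapping groups and 0.09 ± 0.05, and Smad1, a transducer of BMP receptors, had 0.20 ± 0.08. Zfyve9, which encodes the SMAD anchor SARA, had -0.10 ± 0.05.

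Genes that these pathways are known to induce were read next. Of the 10 BMP target genes tested, 5 had positive and 5 negative fold changes, with a median of -0.02. Id2, a transcriptional inhibitor, was lower at an unadjusted p under 0.05, with 11.7, 15.6 and 14.9 CPM in wild type against 10.3, 11.2 and 10.03 CPM in ADCY3∆AT (-0.41 ± 0.11, edgeR adjusted p = 0.268). Its groups were apart by 0.484 CPM. Id1 had -0.15 ± 0.08 and Atoh8 0.30 ± 0.14. Of the 11 activin and TGF-beta targets, 9 had positive fold changes, as had 9224 of all 18114 genes tested, and the median was 0.10. At an unadjusted p under 0.05, 2 targets were higher. These were Thbs1 (0.63 ± 0.23), a matrix protein that activates latent TGF-beta, and Ccn1 (0.22 ± 0.09), while Col1a1 had 0.38 ± 0.18. Thbs1 had 0.39 without wild-type replicate 2, and Col1a1 had 0.23 when wild-type replicate 1 was left out and 0.25 when ADCY3∆AT replicate 3 was. Col1a1 is also one of the 10 fibroblast markers, which summed to 428 to 508 CPM in wild type against 483 to 556 CPM in ADCY3∆AT.

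**Figure D4:**
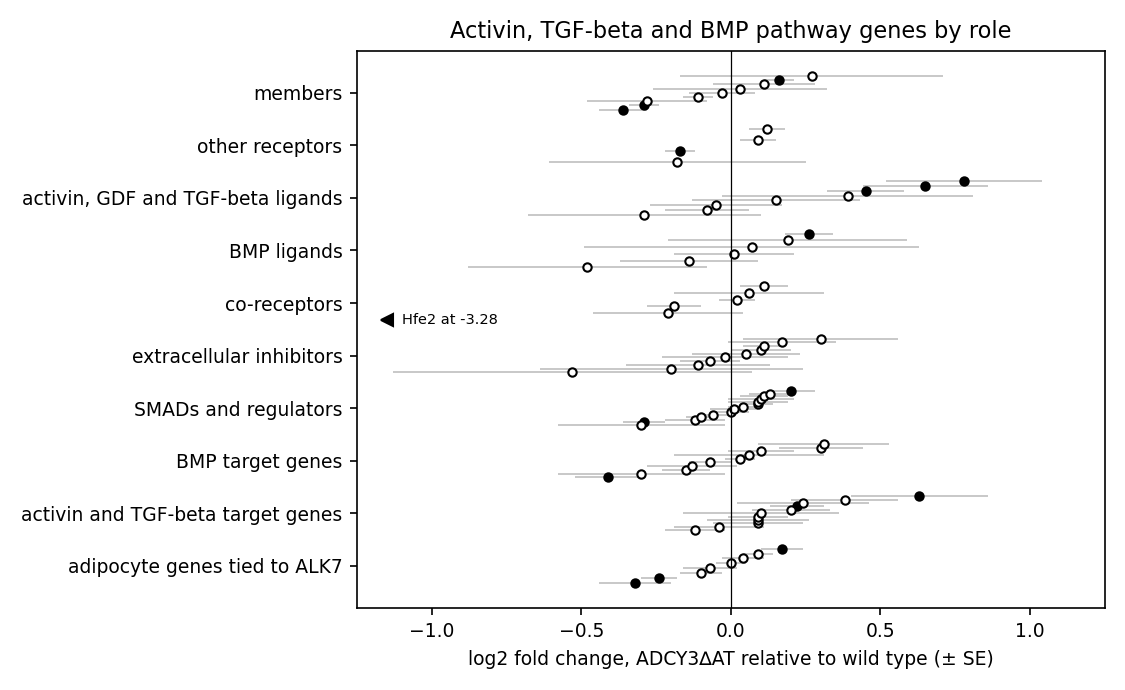
Log2 fold changes (ADCY3∆AT relative to wild type, bars ± SE) of the tested genes of each list, ordered by size within a list. Filled points have an unadjusted p under 0.05 and open points do not, no gene passed edgeR's adjusted threshold, and Hfe2 at -3.28 lies beyond the axis and is drawn as an arrowhead.

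Adipocyte genes that are known to respond to loss of ALK7 in mice, with their partners, held 1 gene higher and 2 lower of 8 at an unadjusted p under 0.05. Their fold changes were 4 positive and 4 negative, with a median log2 fold change of -0.03. Adrb3, the main adrenergic receptor of rodent adipocytes, had 221, 203 and 187 CPM in wild type against 229, 227 and 232 CPM in ADCY3∆AT, which did not overlap (log2 fold change 0.17 ± 0.07, edgeR adjusted p = 0.400). Adrb1 had -0.32 ± 0.12, and its groups were apart by 0.172 CPM. Abhd5, which encodes the activator of adipose triglyceride lipase, had 164, 188 and 171 CPM in wild type against 143, 151 and 149 CPM in ADCY3∆AT. These did not overlap either (-0.24 ± 0.06, edgeR adjusted p = 0.246). Of the genes whose profiles over the 6 libraries were nearest to that of Acvr1c, by root mean square difference of centred log2 CPM, the first 5 of 10986 were Coa4 (0.028), Syt12 (0.045), Strbp (0.048), Fam126b (0.049) and Mblac1 (0.051). Bmpr1a ranked 494 on that measure (0.131) and Acvr2a 8394 (0.284). None of the 5 passed in edgeR or DESeq2, and their log2 fold changes were -0.31, -0.28, -0.31, -0.29 and -0.37 in the same order. Fold changes near that of Acvr1c follow from how the 5 were chosen, so they are no separate result.

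**Figure D5:**
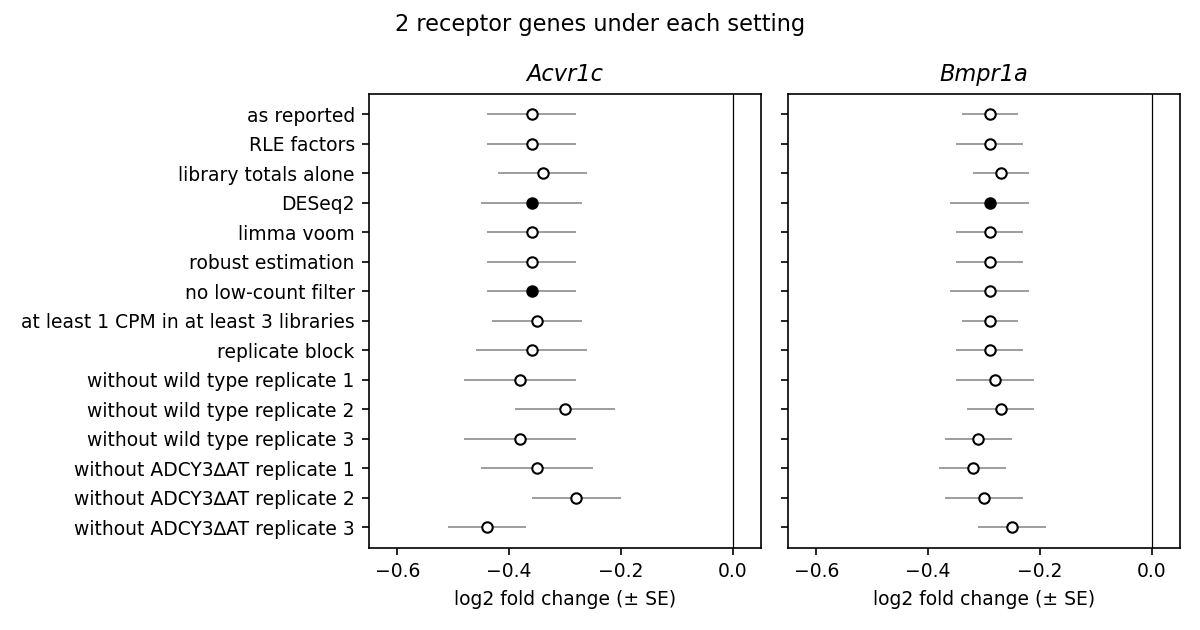
Log2 fold changes (± SE) of Acvr1c and Bmpr1a under the reported setting and 14 alternatives, with filled points where the adjusted p is at most 0.05. All points lie below 0, from -0.44 to -0.28 for Acvr1c and from -0.32 to -0.25 for Bmpr1a, and the filled ones are DESeq2 for both and edgeR without a low-count filter for Acvr1c.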

How the data were processed

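The authors deposited estimated counts per Ensembl gene, not normalised, in 1 table for the 6 libraries, of which 31.6% of values are not whole. Per the submitters' processing notes the tools were Salmon, StringTie and edgeR and the build was GRCm38, with no version or order. Libraries were paired-end, from total RNA, per the labels' protocols. Rows were matched to GENCODE M21 (GRCm38) symbols, and 254 of 54385 did not match, a median of 0.0271% of a library. Promoters come from RefSeq (GRCm38.p6), where 9 of 10 members matched.

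Counts were rounded, filtered with filterByExpr, scaled with TMM factors and tested for genotype with edgeR 4.0.16 (R 4.3.3) by the quasi-likelihood F test, with Benjamini-Hochberg adjustment over 18114 genes and a threshold of 0.05. The statistics were tested on simulated data, where the share of unchanged genes among the calls was above the nominal 0.05 for both tools and larger for DESeq2 than for edgeR. SEs are those implied by the F statistic. Log2 CPM used a prior count of 2. Alternatives included DESeq2 1.42.0 and voom in limma 3.58.1, and DESeq2 refits without each library were added after seeing the data. A floor of 3 counts corresponds to 0.0547 to 0.0681 CPM per library and covers counting error only. Each pair of libraries differed by more than counting noise (chi-square per degree of freedom from 24.1 to 71.7).

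The members, lists and naming rule were chosen with earlier results of these data known. All members are named, with the 3 lowest p-values of each pathway list, every gene past the threshold and the 5 genes nearest to Acvr1c. Smad2, Inhbc, Orc4 and the markers Elovl3, Ppara, Cdh5, Dio2, Ucp1 and Mb were added after their values were seen.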

Additional observations from a re-analysis of the deposited data

How the results depend on the processing

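The genes called by edgeR numbered 1 as reported and 229 in DESeq2, 214 with no low-count filter, 2 in limma voom and with robust estimation, and 3 with the replicate block. Leaving out 1 library gave 1 to 66, the highest without ADCY3∆AT replicate 3. Acvr1c kept its direction under all 14 alternatives and passed in DESeq2 (-0.36, adjusted p = 0.00747) and without a low-count filter (-0.36, adjusted p = 0.0404), with adjusted p from 0.00747 to 0.652. Bmpr1a kept it under all 14 and passed in DESeq2 (-0.29, adjusted p = 0.0147), with adjusted p up to 0.589. Leaving out 1 library in edgeR gave -0.44 to -0.28 for Acvr1c and -0.32 to -0.25 for Bmpr1a. In DESeq2 it gave the same ranges, and each gene lost its call without 3 of the 6 libraries, as given in the report. These DESeq2 refits and the settings for lists and pathway genes were chosen after seeing the data. Leaving out 1 library turned the sign of Acvr1b (-0.12 to 0.07) and of Bmp4 (-0.13 to 0.27). Bmp8b turned without wild-type replicate 1 (0.05) and ADCY3∆AT replicate 1 (0.08), within -0.31 to 0.08. The co-receptor list had 1 call, Hfe2, with no low-count filter, and 0 otherwise. The cause of these changes was not tested. Bmp4 had no value with at least 1 CPM in at least 3 libraries.

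The replicate numbers did not pair the libraries. Same-numbered libraries had correlations of their deviations from the group means of -0.09, -0.13 and -0.09, and none correlated best with its own number. With the replicate block, Acvr1c had -0.36 ± 0.10 (SE, edgeR adjusted p = 0.475) and Bmpr1a -0.29 ± 0.06 (0.272).

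The levels per longest transcript were 13.7 CPM per kb for Bmpr2, 9.99 for Bmpr1a, 1.57 for Acvr1 and 0.689 for Acvr2b in wild type, each more than 1 SD from the level per merged exons. Counts of 2 to 10 per library limit what can be said of Gdf3, and 29 to 105 of Bmp4 and Inhbb.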
